A study of Mus musculus with 4 samples.

Results

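The genes described here encode 44 enzymes and carriers of mitochondrial fuel oxidation in CD8+ T cells: the later steps of branched-chain amino acid breakdown, fatty acid oxidation and the tricarboxylic acid (TCA) cycle. They were taken from a list of gene names, found in a table of 53465 genes, and each name stood on 1 row. The RNA came from splenic CD8+ T cells of mice, activated by a 24 h culture on beads bearing anti-CD3 and anti-CD28, which stand in for antigen and costimulation. Of the 4 libraries, 2 are labelled PP2Cm KO and 2 are labelled WT, all 4 from stimulated cells. Strain, age, the design of the knockout allele and the number of mice behind each library were not stated in the labels used here, so p-values measure the spread between these libraries, which may be technical.

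PP2Cm, encoded by Ppm1k, removes an inhibitory phosphate in mitochondria from the branched-chain ketoacid dehydrogenase, whose reaction commits all of the branched-chain amino acids to breakdown. Downstream of that complex, leucine carbon ends as acetyl-CoA and acetoacetate, isoleucine carbon as acetyl-CoA and propionyl-CoA, and valine carbon as propionyl-CoA. Acetyl-CoA from amino acids and from beta-oxidation of fatty acids is burnt in the TCA cycle, and propionyl-CoA enters it as succinyl-CoA. Naive and memory T cells rely largely on oxidation, and activated T cells add glycolysis while keeping the cycle running as a source of energy and building blocks.

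The genotype field and the title of each library name 1 genotype, and its description code begins with the letters of the other. Libraries were grouped by the genotype field and title, and every sign below would turn if the codes were right. Ppm1k had 157 and 206 counts in the libraries labelled KO, against 102 and 94 counts in those labelled WT, which goes against the labels. Library totals ran from 12967251 to 17316284 counts. All 8 markers of CD8 T cells were counted, and their summed level was 2524 and 2361 CPM in the libraries labelled KO, against 2832 and 2592 CPM in those labelled WT. CPM are counts relative to library size, here and below scaled by the trimmed mean of M values (TMM), which evens out differences in composition between libraries. The labels did not overlap in the CD8 sum. Cd3d, Cd3g and Lck were lower in both libraries labelled KO, at −0.52, −0.41 and −0.30 on the log2 scale (edgeR adjusted p = 0.222, 0.276 and 0.385). Cd8a, Cd3e, Cd2, Cd8b1 and Trac overlapped between labels, at −0.01, 0.01, 0.07, −0.18 and −0.11. Of the lists for other cell types, the B cell sum was 303.2 and 268.4 CPM in the libraries labelled KO, against 425.6 and 365.0 CPM in those labelled WT, nearly all of it Ighm. The sum for CD4 and regulatory T cells came to 46.7 and 40.9 CPM in the libraries labelled KO, against 39.0 and 38.2 CPM in those labelled WT. Its members had differences of both signs, with Cd4 at 0.96 and Zbtb7b at −0.71 on the log2 scale (edgeR adjusted p = 0.369 and 0.383). The stromal and endothelial sum was 18.1 and 19.0 CPM in the libraries labelled KO, against 37.5 and 31.2 CPM in those labelled WT, nearly all of it Pecam1 (log2 fold change −0.88, edgeR adjusted p = 0.112). The labels did not overlap in the natural killer and the erythroid sums either, with labelled KO below, and overlapped in the myeloid and dendritic sums. Most of the natural killer sum was Eomes. It had 80.1 and 76.9 CPM in the libraries labelled KO, against 84.4 and 92.8 CPM in those labelled WT. Other members of that list differed in both directions. Klrb1c was at 1.19 and Klrk1 at −0.68 on the log2 scale (edgeR adjusted p = 0.521 and 0.448). The erythroid sum was 1.65 and 2.28 CPM in the libraries labelled KO, against 3.30 and 6.12 CPM in those labelled WT. The myeloid, dendritic, natural killer and erythroid lists each summed to at most 113.2 CPM in a library. S100a9, Alas2, Col3a1 and Cdh5 were at 0 counts in every library. The part of other cell types in the results was not tested, and in bulk samples fewer cells of a type and less RNA per cell cannot be told apart.

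Most of the 44 message levels differed little between the labels. None of the 44 genes passed the threshold, an adjusted p under 0.05 by the quasi-likelihood test of edgeR over all genes tested, where 0.207% of 13528 genes passed. DESeq2 called 1 member, Suclg2, among 2.04% of genes called. At an unadjusted p under 0.05 by edgeR, 1 member was higher in the libraries labelled KO (Suclg2; all genes, 5.7%) and 2 were lower (Cpt1a and Sdha; all genes, 7.23%). In either direction 12.9% of all genes reached that level. All 44 members passed the filter on low counts, with 34 to 10022 counts in a library.

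The size of the differences was bounded. In 30 of the 44 members the 95% limits of the fold change lay within 1.5-fold either way, against 43.8% of all genes tested. Standard errors of the log2 fold changes had a median of 0.14 over the members and 0.18 over all genes. A log2 fold change smaller than 0.2 in size was seen in 30 members, and in 52.7% of all genes. The signs leaned to one side: 33 members had a negative log2 fold change of labelled KO over labelled WT and 11 a positive one, where 51.9% of all genes were negative and 48.1% positive. The median was −0.11 over the members and −0.01 over all genes tested. It was −0.05, with 26 negative members, without labelled KO replicate 2, and −0.06, with 28 negative members, without labelled WT replicate 2.

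**Figure D1:**
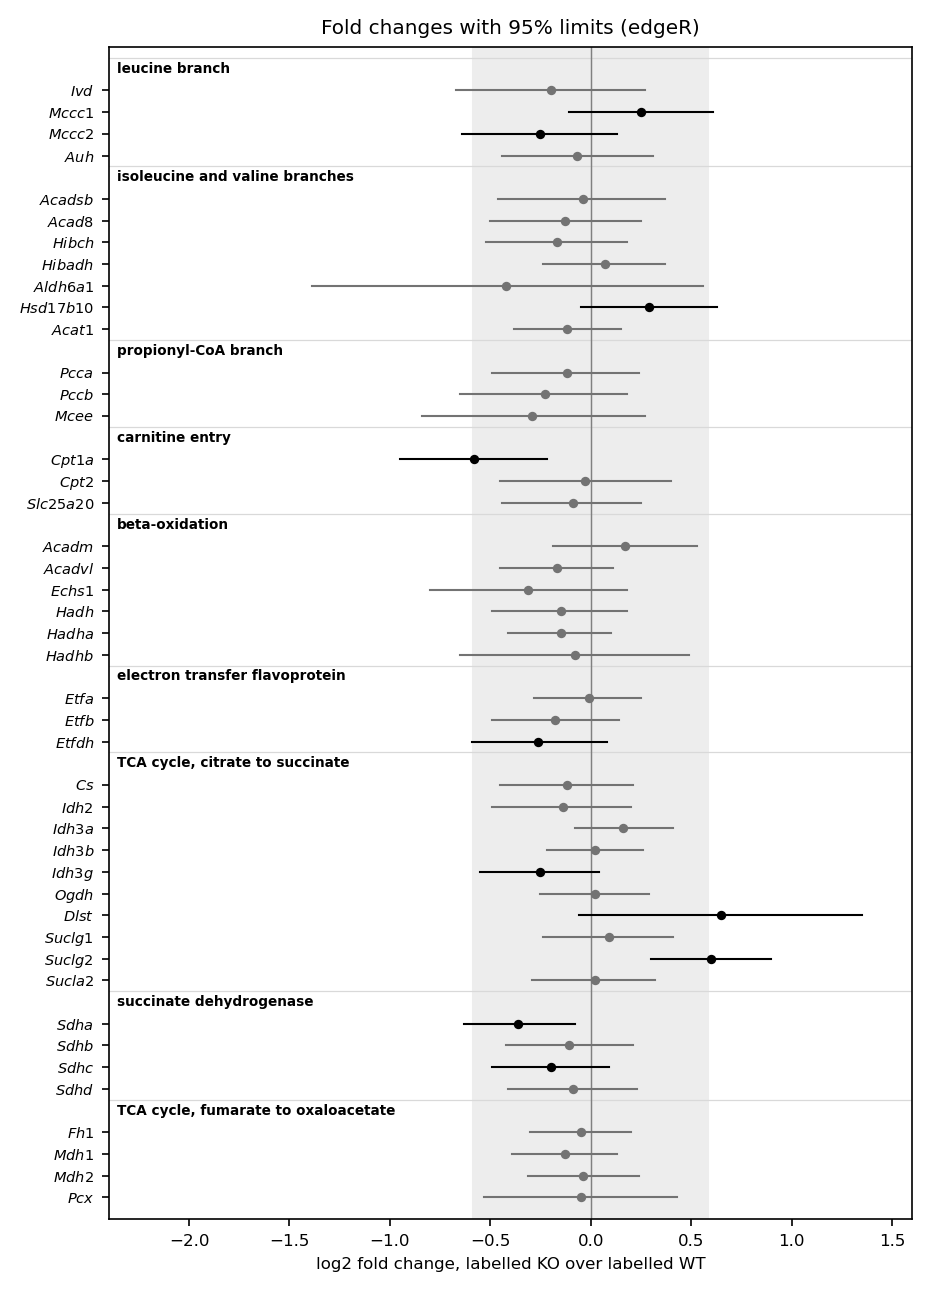
Log2 fold change of each of the 44 genes (horizontal axis, labelled KO over labelled WT) with its 95% limits as a bar, grouped by role. The grey band spans 1.5-fold either way, black marks the 10 genes with the smallest p, and the limits exclude 0 for Suclg2, Cpt1a and Sdha alone.

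In 23 members both libraries of 1 label lay beyond both of the other, where 44.9% of all genes did. Of these, 7 had both libraries labelled KO above (all genes, 21.5%) and 16 had both below (all genes, 23.3%). The libraries also differed within a label. Labelled WT replicate 2 was the highest of the 4 libraries in 13 of the 18 members of the TCA cycle, against 27.7% of all genes. Labelled WT replicate 1 was highest in 9 of the 14 members of branched-chain amino acid breakdown, against 26.1% of all genes. Labelled KO replicate 2 was the lowest in 18 of the 44 members, against 26.5% of all genes.

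Levels between genes are compared as FPKM, deposited values scaled by gene length and library total. On this scale the TCA cycle stood far above the amino acid branches. Its 18 members summed to 817.9 and 773.6 FPKM in the libraries labelled KO, against 785.2 and 874.0 FPKM in those labelled WT. The 12 members of fatty acid oxidation summed to 148.1 and 146.0 FPKM in the libraries labelled KO, against 159.7 and 160.6 FPKM in those labelled WT. The 14 members of branched-chain amino acid breakdown summed to 79.8 and 82.9 FPKM in the libraries labelled KO, against 85.6 and 77.2 FPKM in those labelled WT. Of these 3 sums, the fatty acid sum alone kept the labels apart in FPKM. In TMM-scaled CPM the amino acid sum did so too, narrowly. It was 394.2 and 400.0 CPM in the libraries labelled KO, against 422.3 and 400.2 CPM in those labelled WT.

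The most abundant message was Sdhd, a membrane anchor of succinate dehydrogenase, at 199.7 FPKM over the 4 libraries. Cs, the citrate synthase that starts the cycle, followed at 86.3 FPKM, then Mdh2, the mitochondrial malate dehydrogenase, at 76.3 FPKM and Sdha at 74.4 FPKM. At the low end stood Aldh6a1 at 0.68 FPKM, Acadsb at 1.13 FPKM, Hadhb at 1.41 FPKM as counted, Mccc1 at 1.71 FPKM and Pcx, the pyruvate carboxylase that refills oxaloacetate, at 1.74 FPKM. The place of Hadhb rests on its counts without a pseudogene, Gm13910. With the counts of Gm13910 added, at the length of Hadhb, it had 9.01 FPKM and rank 25 of the 44, where it had rank 42 alone. The lengths implied by count and FPKM ran from 0.563 to 2.21 times the summed exons of each gene in GENCODE M21. With those exon lengths in place of the deposited ones, Sdhd stayed first and Aldh6a1 last, but Mdh2 and Sdha ranked above Cs. Cpt2 then held rank 27, against rank 36 on the deposited lengths, and Cpt1a rank 31, against rank 24.

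**Figure D2:**
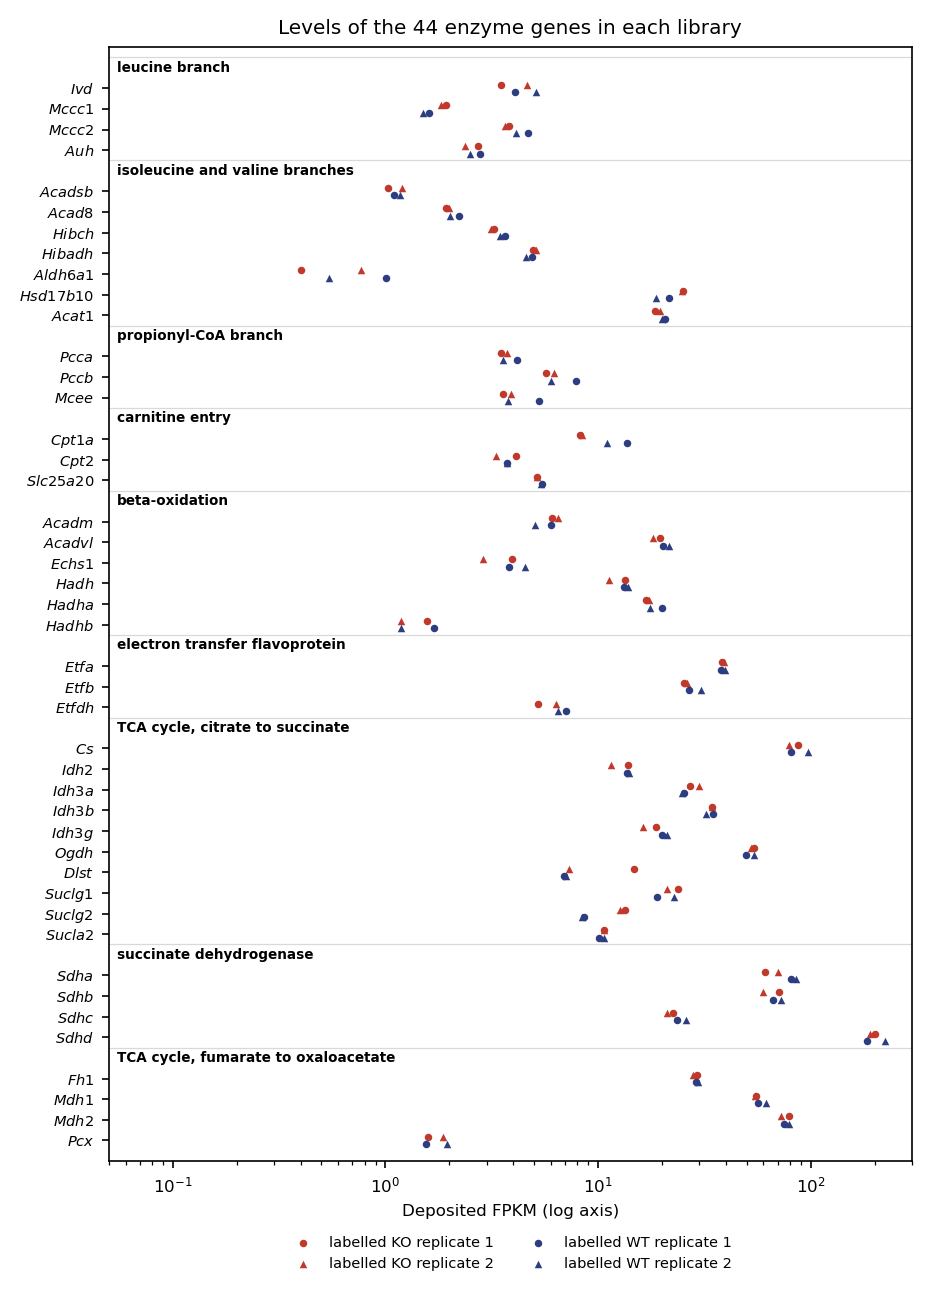
Deposited FPKM (horizontal log axis) of each of the 44 genes in the 2 libraries labelled KO and the 2 labelled WT, grouped by role. Most of the TCA cycle lies to the right of the amino acid branches, and Dlst in labelled KO replicate 1, at 14.7 FPKM, stands apart from the other 3 libraries of that gene.

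In the leucine branch, both subunits of methylcrotonyl-CoA carboxylase, the biotin enzyme of the pathway, were separated by label, in opposite directions. Mccc1, the biotin-carrying subunit (chromosome 3, 35959312 to 36000678, GRCm38), had 25.7 and 23.8 CPM in the libraries labelled KO, against 21.3 and 20.5 CPM in those labelled WT. Mccc2, the carboxyltransferase subunit (chromosome 13, 99948530 to 100015639), had 15.5 and 14.6 CPM in the libraries labelled KO, against 18.8 and 17.1 CPM in those labelled WT. Their groups did not overlap, but neither difference passed the test: the log2 fold changes were 0.25 (SE 0.15, edgeR adjusted p = 0.554) and −0.25 (SE 0.16, edgeR adjusted p = 0.567). Exons of Mccc1 overlap an antisense gene, Gm15952, which held 3 to 6 counts. Ivd, which oxidises isovaleryl-CoA, and Auh, the methylglutaconyl-CoA hydratase, overlapped between labels, at −0.20 and −0.07 on the log2 scale.

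In the isoleucine and valine branches, 5 of 7 members had a log2 fold change below 0, and the median was −0.12. Hsd17b10, which oxidises 2-methyl-3-hydroxybutyryl-CoA in isoleucine breakdown and is also a subunit of mitochondrial RNase P, had the smallest p of the group. It lies on the X chromosome from 152001845 to 152004442. Hsd17b10 had 50.2 and 48.5 CPM in the libraries labelled KO, against 42.9 and 38.0 CPM in those labelled WT. Both libraries labelled KO were above both labelled WT, and the log2 fold change of 0.29 (SE 0.14, edgeR adjusted p = 0.458) did not pass.

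Acat1, the thiolase that ends isoleucine breakdown and also handles ketone bodies, had a log2 fold change of −0.12, with 95% limits of −0.38 and 0.15. Of the valine enzymes, Acad8, the isobutyryl-CoA dehydrogenase, had a log2 fold change of −0.13, with limits of −0.50 and 0.25. Hibch, the hydroxyisobutyryl-CoA hydrolase, was at −0.17, with limits of −0.52 and 0.18. Hibadh, the hydroxyisobutyrate dehydrogenase, was at 0.07, with limits of −0.24 and 0.37. Both libraries labelled KO were below both labelled WT for Acat1, Acad8 and Hibch, and above both for Hibadh. Acadsb, which oxidises 2-methylbutyryl-CoA from isoleucine, had a log2 fold change of −0.04. Aldh6a1, the methylmalonate semialdehyde dehydrogenase that closes the valine branch, was too thinly counted to tell. It had 34 and 69 counts in the libraries labelled KO, against 83 and 60 counts in those labelled WT, which overlap, and its limits ran from −1.39 to 0.56 on the log2 scale.

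Propionyl-CoA, the common end of isoleucine and valine, is carboxylated by a carboxylase of alpha (Pcca) and beta (Pccb) subunits. The product, methylmalonyl-CoA, is turned over by the epimerase Mcee. All 3 members had negative log2 fold changes, from −0.29 for Mcee to −0.12 for Pcca, and edgeR adjusted p values started at 0.627. Pccb had 22.4 and 23.9 CPM in the libraries labelled KO, against 30.5 and 24.0 CPM in those labelled WT. Labelled WT replicate 1 was the high library, and the other 3 lay within a narrow range.

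Long-chain fatty acids enter mitochondria as carnitine esters, and Cpt1a, the carnitine palmitoyltransferase of the outer membrane, is the rate-limiting step. Cpt1a lies on chromosome 19 from 3323301 to 3385732. It had 35.8 and 35.6 CPM in the libraries labelled KO, against 58.5 and 48.4 CPM in those labelled WT. Both libraries labelled KO were below both labelled WT, and the libraries labelled KO nearly coincided. The log2 fold change was −0.58 (SE 0.15), 1.5-fold lower in the libraries labelled KO, with 95% limits of −0.95 and −0.22. The adjusted p was 0.22 by edgeR and 0.0912 by DESeq2, so it was not called. The value was −0.43 with labelled WT replicate 1 left out and −0.71 with the other library of that label left out. The inner membrane partners had log2 fold changes of smaller size. The carnitine-acylcarnitine carrier Slc25a20 was at −0.09, with 95% limits of −0.44 and 0.25. Cpt2, which regenerates acyl-CoA in the matrix, was at −0.03, with limits of −0.45 and 0.40. These limits overlap those of Cpt1a. Slc25a20 was also lower in both libraries labelled KO, with 27.3 and 26.5 CPM, against 28.7 and 28.8 CPM in those labelled WT. The difference between Cpt1a and these genes was not tested.

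In the beta-oxidation spiral, 5 of 6 members had a log2 fold change below 0. The median was −0.15 and the lowest edgeR adjusted p 0.58. Acadvl and Acadm, the dehydrogenases of very long and of medium chains, had log2 fold changes of −0.17 and 0.17. Hadha, the hydratase and dehydrogenase subunit of the trifunctional protein, had a log2 fold change of −0.15, with limits of −0.41 and 0.10. Echs1, a hydratase shared with valine and isoleucine breakdown, had 44.4 and 31.5 CPM in the libraries labelled KO, against 42.3 and 51.7 CPM in those labelled WT, which overlap.

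Hadhb, the thiolase subunit of the same trifunctional protein, is uncertain as counted. It had 185 and 148 counts in the libraries labelled KO, against 194 and 181 counts in those labelled WT. Gm13910, a processed pseudogene, shares 1229 of the 6774 distinct 50-base stretches of the Hadhb transcripts and had 815 and 832 counts in the libraries labelled KO, against 923 and 1327 counts in those labelled WT. Summed, the pair had 75.2 and 67.8 CPM in the libraries labelled KO, against 85.8 and 88.8 CPM in those labelled WT, which do not overlap. The log2 fold change of the sum was −0.29 (SE 0.12, edgeR adjusted p = 0.382), where that of Hadhb alone was −0.08.

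Electrons from these acyl-CoA dehydrogenases pass through the electron transfer flavoprotein, made of Etfa and Etfb, to its membrane oxidoreductase Etfdh. Etfa was among the most even members, with 85.2 and 84.8 CPM in the libraries labelled KO, against 82.8 and 88.6 CPM in those labelled WT. Etfdh (chromosome 3, 79603788 to 79629500) had 50.2 and 59.5 CPM in the libraries labelled KO, against 67.8 and 63.1 CPM in those labelled WT. Its groups did not overlap, and its log2 fold change of −0.26 (SE 0.14, edgeR adjusted p = 0.511) did not pass. It was −0.14 without labelled KO replicate 1. Exons of Etfdh overlap those of 4930579G24Rik on the other strand, and the strand setting of the counting was not stated. In all, 9 members have such an overlap. Acadvl shares 1151 bases with Dvl2, Pcca 241 bases with Ggact and Echs1 142 bases with Paox. Ggact had 147 and 236 counts in the libraries labelled KO, against 243 and 250 counts in those labelled WT. Dvl2 and Paox were counted in every library too. The part of these overlaps in the counts was not tested.

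In the TCA cycle from citrate to succinate, 7 of 10 members had a log2 fold change above 0, and the median was 0.02. Suclg2 had the smallest p of all 44 genes. It encodes the GTP-forming beta subunit of succinyl-CoA ligase, which pairs with the alpha subunit Suclg1, and Sucla2 encodes the ATP-forming alternative. Suclg2 (chromosome 6, 95473009 to 95718800) had 79.6 and 73.7 CPM in the libraries labelled KO, against 50.4 and 50.6 CPM in those labelled WT. Both libraries labelled KO were well above both labelled WT, which nearly coincided. The log2 fold change was 0.60 (SE 0.13), a fold of 1.52, with 95% limits of 0.30 and 0.90. The adjusted p was 0.138 by edgeR and 0.0109 by DESeq2, so the call rests on the tool.

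The count of Suclg2 also depends on a copy. The processed pseudogene Gm15163 shares 16% of the 50-base stretches of its transcripts and had 432 and 500 counts in the libraries labelled KO, against 451 and 601 counts in those labelled WT. With both summed, the pair had 112.1 and 108.3 CPM in the libraries labelled KO, against 85.0 and 86.0 CPM in those labelled WT. The labels still did not overlap, and the log2 fold change was 0.37 (SE 0.11, edgeR adjusted p = 0.245). Sucla2 had 60.1 and 58.8 CPM in the libraries labelled KO, against 56.4 and 61.2 CPM in those labelled WT, and its log2 fold change was 0.02 with limits of −0.29 and 0.32. Suclg1 had a log2 fold change of 0.09, with limits of −0.24 and 0.41.

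The promoters of Suclg2 and Sucla2, and of Cpt1a and Sdha, are shown because Suclg2 and Sucla2 are alternative partners of 1 enzyme, and Cpt1a and Sdha have the smallest p after Suclg2. Each is the 250 bases before the RefSeq start in GRCm38.p6, read 5′ to 3′ on the gene's strand, at chr6:95718847-95719096 (minus), chr14:73552536-73552785 (plus), chr19:3323051-3323300 (plus) and chr13:74350241-74350490 (minus). The RefSeq start of Sucla2 lies inside the span that the deposited table gives for this gene (chromosome 14, 73525319 to 73596142), and the window of Sdha overlaps the end of the span given for Sdha. Capitals mark matches to CCAAT or to the GC box GGGCGG, on either strand.
Suclg2: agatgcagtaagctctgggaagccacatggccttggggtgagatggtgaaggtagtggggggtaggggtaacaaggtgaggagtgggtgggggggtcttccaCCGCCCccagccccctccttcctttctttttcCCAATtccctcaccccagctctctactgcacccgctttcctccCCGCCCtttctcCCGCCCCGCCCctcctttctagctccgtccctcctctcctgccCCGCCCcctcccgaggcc
Sucla2: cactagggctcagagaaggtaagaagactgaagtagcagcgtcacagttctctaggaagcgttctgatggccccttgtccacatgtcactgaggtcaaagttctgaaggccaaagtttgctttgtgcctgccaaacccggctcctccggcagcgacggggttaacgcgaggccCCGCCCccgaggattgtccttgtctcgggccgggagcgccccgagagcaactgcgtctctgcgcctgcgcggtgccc
Cpt1a: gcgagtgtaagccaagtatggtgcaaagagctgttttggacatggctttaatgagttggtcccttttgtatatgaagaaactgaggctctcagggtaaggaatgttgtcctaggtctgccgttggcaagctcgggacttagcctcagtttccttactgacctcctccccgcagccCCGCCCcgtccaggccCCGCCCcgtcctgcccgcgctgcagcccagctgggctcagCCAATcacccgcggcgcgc
Sdha: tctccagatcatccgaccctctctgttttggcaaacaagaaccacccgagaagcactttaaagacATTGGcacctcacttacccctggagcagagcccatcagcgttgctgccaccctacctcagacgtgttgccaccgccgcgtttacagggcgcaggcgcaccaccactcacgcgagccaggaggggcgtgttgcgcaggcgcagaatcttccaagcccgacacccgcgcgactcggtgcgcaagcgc
The GC box was found 5 times in the Suclg2 window, 2 times in that of Cpt1a, 1 time in that of Sucla2 and 0 times in that of Sdha, counting overlapping matches. Of 32851 RefSeq promoter windows of this length, 32.7% hold it, and of the 41 members with an entry, 27 hold it in at least 1 window. CCAAT is in 24 of the 41 and in 33.8% of all windows. Searched on both strands as well, the NRF1 motif was in the windows of 1 member (all windows, 0.782%), the E-box CACGTG in 3 (6.02%), the nuclear receptor half-site AAGGTCA in 1 (4.08%) and the cyclic AMP response element TGACGTCA in 2 (1.55%). None of these 4 was in the windows printed. Members were counted by gene, over all of their windows, and the background by single window. The shares for members and for all windows are therefore not like for like. A match describes the letters only.

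Dlst, the succinyltransferase core of the 2-oxoglutarate dehydrogenase complex, had the largest fitted difference and rests on 1 library. Dlst (chromosome 12, 85110833 to 85134845) had 193.1 and 94.0 CPM in the libraries labelled KO, against 89.5 and 93.5 CPM in those labelled WT. Labelled KO replicate 1 stood far above the other 3, which lay together. The log2 fold change was 0.65 (SE 0.30, edgeR adjusted p = 0.425), and it was 0.04 without that library and 1.08 without labelled KO replicate 2. Ogdh, the first enzyme of the same complex, was even, with a log2 fold change of 0.02 and limits of −0.25 and 0.29.

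The isocitrate dehydrogenases showed small differences. Idh3g (X chromosome, 73778963 to 73786897), a regulatory subunit of the NAD-dependent enzyme, had 103.2 and 87.5 CPM in the libraries labelled KO, against 109.3 and 117.9 CPM in those labelled WT. Its groups did not overlap, and its log2 fold change was −0.25 (SE 0.13, edgeR adjusted p = 0.457). The value was −0.13 without labelled KO replicate 2 and −0.38 without labelled KO replicate 1. The catalytic subunit Idh3a had a log2 fold change of 0.16, the subunit Idh3b 0.02, the NADP-dependent enzyme Idh2 −0.14 and Cs −0.12.

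Succinate dehydrogenase joins the cycle to the respiratory chain, and all 4 of its subunits had negative log2 fold changes. Sdha, the flavoprotein that oxidises succinate (chromosome 13, 74322254 to 74350280), had 364.0 and 407.7 CPM in the libraries labelled KO, against 476.1 and 512.4 CPM in those labelled WT. Both libraries labelled KO were below both labelled WT. The log2 fold change was −0.36 (SE 0.12), 1.28-fold lower in the libraries labelled KO, with limits of −0.63 and −0.08. It was not called, with an adjusted p of 0.282 by edgeR and 0.216 by DESeq2.

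Sdhc, a membrane anchor (chromosome 1, 171127165 to 171150603), had 87.4 and 79.5 CPM in the libraries labelled KO, against 89.7 and 101.8 CPM in those labelled WT. Its log2 fold change was −0.20 (SE 0.12, edgeR adjusted p = 0.555), and −0.10 without labelled WT replicate 2 and −0.13 without labelled KO replicate 2. The iron-sulphur subunit Sdhb and the anchor Sdhd overlapped between labels, at −0.11 and −0.09 on the log2 scale.

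From fumarate to oxaloacetate no log2 fold change was larger than 0.13 in size, and the limits of all 4 members lay within 1.5-fold. The log2 fold changes were −0.05 for the fumarase Fh1, −0.13 for Mdh1, −0.04 for Mdh2 and −0.05 for Pcx. Mdh1 is the cytosolic malate dehydrogenase of the malate-aspartate shuttle, and the message for the matrix enzyme is Mdh2. Mdh1 had 190.2 and 184.9 CPM in the libraries labelled KO, against 193.6 and 216.3 CPM in those labelled WT.

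**Figure D3:**
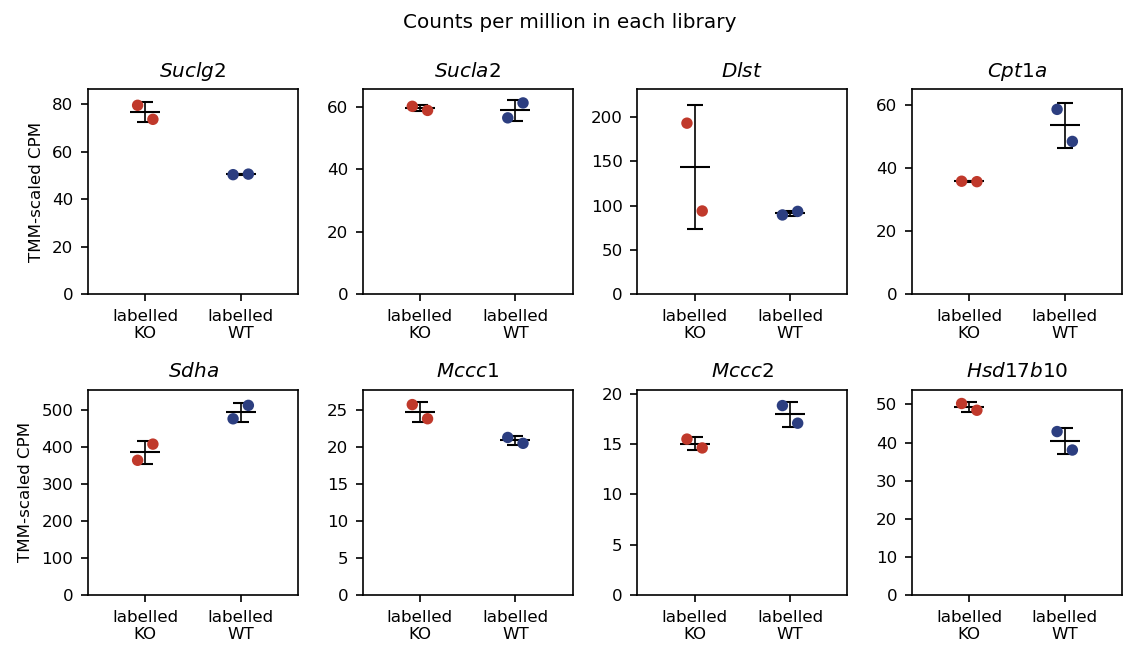
TMM-scaled CPM of 8 genes (vertical axes from 0) in the 2 libraries labelled KO and the 2 labelled WT, each point a library, with the mean and SD as bars. Suclg2, Hsd17b10 and Mccc1 are higher and Cpt1a, Sdha and Mccc2 lower in both libraries labelled KO, Sucla2 overlaps, and the spread of Dlst comes from 1 library at 193.1 CPM.

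Ratios of subunits within a library do not depend on scaling between libraries, and they were taken for 7 pairs from FPKM. Mccc1 to Mccc2 was 0.506 and 0.497 in the libraries labelled KO, against 0.344 and 0.365 in those labelled WT. Sucla2 to Suclg2 was 0.793 and 0.838 in the libraries labelled KO, against 1.18 and 1.27 in those labelled WT. Both gaps were wider than the spread within a label, at 0.50 and −0.58 on the log2 scale. With the counts of Gm15163 added to Suclg2, the ratio of Sucla2 to Suclg2 was 0.564 and 0.57 in the libraries labelled KO, against 0.697 and 0.748 in those labelled WT. It was then below 1 in all 4 libraries, and the labels still did not overlap.

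Smaller gaps were seen in 3 pairs whose labels did not overlap. On the log2 scale, Etfa to Etfb was at 0.16, Idh3b to Idh3g at 0.28 and Pcca to Pccb at 0.10. Etfb shares 570 of the 1301 distinct stretches of its transcripts, of the length used for Hadhb, with Gm45233. Gm45233 overlaps 617 exon bases of Etfb on the same strand and had 0 counts in every library. The part of this overlap in the counts of Etfb was not tested. Hadha to Hadhb, at 10.8 and 14.7 in the libraries labelled KO, against 11.8 and 14.8 in those labelled WT, overlapped, as did Sdha to Sdhb. With Gm13910 added to Hadhb, the ratio was 1.99 and 2.21 in the libraries labelled KO, against 2.04 and 1.78 in those labelled WT, which overlap as well. The ratios are given as a description, with no test; an exact permutation test of a single ratio, two-sided, cannot go below p = 0.333 with 2 libraries a label.

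**Figure D4:**
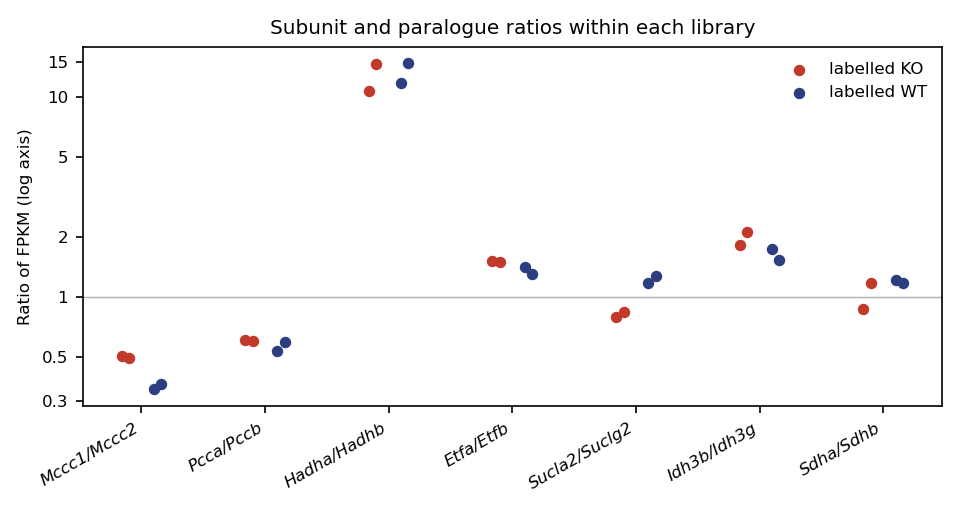
Ratio of FPKM of 7 pairs of subunits or paralogues (vertical log axis) within each library, labelled KO at the left and labelled WT at the right of each pair. Mccc1 to Mccc2 lies higher and Sucla2 to Suclg2 lower in both libraries labelled KO, and Hadha to Hadhb overlaps between labels.

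The other genes of these pathways were taken from 3 lists, of 18, 24 and 32 genes, of which 66 of 74 were tested. None passed by edgeR in either direction (all genes, 0.207%), and DESeq2 called 1, Acadl (all genes, 2.04%). At an unadjusted p under 0.05, 2 were higher (all genes, 5.7%) and 7 lower (all genes, 7.23%). The median log2 fold change was −0.08, with 44 negative and 22 positive values, where 51.9% of all genes were negative. In the amino acid list, 1 of 17 tested genes was higher at an unadjusted p under 0.05, Ppm1k itself, and 1 was lower (all genes, 5.7% and 7.23%). Ppm1k had 11.8 and 14.3 CPM in the libraries labelled KO, against 7.84 and 5.53 CPM in those labelled WT. Its log2 fold change was 0.97 (SE 0.23, edgeR adjusted p = 0.186). The lower one was Bckdha, the E1 alpha subunit of the branched-chain ketoacid dehydrogenase that PP2Cm acts on. Bckdha had 15.9 and 14.3 CPM in the libraries labelled KO, against 24.7 and 21.2 CPM in those labelled WT, with a log2 fold change of −0.60 (SE 0.17, edgeR adjusted p = 0.238). Both libraries labelled KO were below both labelled WT.

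In the fatty acid list, 1 of 21 tested genes was higher at an unadjusted p under 0.05 (all genes, 5.7%) and 4 were lower (all genes, 7.23%). Acadl, the long-chain acyl-CoA dehydrogenase, had 39.9 and 47.8 CPM in the libraries labelled KO, against 67.9 and 65.1 CPM in those labelled WT. Its log2 fold change was −0.60 (SE 0.15), close to that of Cpt1a, with an adjusted p of 0.186 by edgeR and 0.0468 by DESeq2. Ppargc1a, a coactivator of mitochondrial gene expression known from muscle and brown fat, had 0 counts in all 4 libraries. In the list of pyruvate entry and the cycle, 0 of 28 tested genes were higher at an unadjusted p under 0.05 (all genes, 5.7%) and 2 were lower (all genes, 7.23%). Pdk1, the kinase that switches off pyruvate dehydrogenase, had 134.5 and 126.7 CPM in the libraries labelled KO, against 162.5 and 178.8 CPM in those labelled WT. Its log2 fold change was −0.39 (SE 0.11, edgeR adjusted p = 0.238), and the labels did not overlap.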

How the data were processed

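Per the file headers, the authors deposited counts per gene, whole numbers with no normalization, and FPKM per gene. The submitters' processing notes name kallisto and GRCm38, with no version or role, and the counter, its strand setting and its filters were not stated. Columns carry the description codes and were joined to samples through them; 8 other columns of values were not used. Library totals were 13394074 and 14199020 counts for labelled KO and 12967251 and 17316284 for labelled WT, and precision covers counting error and the spread of 2 libraries a label.

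Genes were filtered with filterByExpr, scaled by TMM and tested in edgeR 4.0.16 under R 4.3.3 over all 13528 genes left, by its quasi-likelihood F test, two-sided, labelled KO over labelled WT, with Benjamini-Hochberg adjustment and a threshold of 0.05. The method was tested on simulated data. The true differences there were larger than any fitted for the members in the main fit, so that test does not cover differences of their size. The standard error is the log2 fold change over the square root of F, and 95% limits use 6.87 degrees of freedom. Alternatives were RLE size factors, no filter, DESeq2 1.42.0, the replicate number as a block, limma 3.58.1 on log2(FPKM + 1) and log2(FPKM + 0.1), and each library left out. GENCODE M21 gave exon lengths, overlaps and shared 50-base stretches, and RefSeq gave promoters.

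The members and lists were chosen with earlier results of these data known. Full statistics are given for the 10 members with the smallest p, since fewer than 10 had an unadjusted p under 0.05, and for genes of the other lists with p under 0.01. Suclg2 with Gm15163 and Hadhb with Gm13910 were summed after the counts of these copies had been seen.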

Additional observations from a re-analysis of the deposited data

How the results depend on the processing

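The count of all genes called, 28, was 146 with no filter on low counts, 276 by DESeq2, 123 with the replicate block, 5 on log2(FPKM + 1), 4 on log2(FPKM + 0.1) and 8 to 304 over the fits that drop 1 library. The cause was not tested. A fit without 1 library takes its spread from the other pair alone. Members called higher numbered 1 by DESeq2 and 0 under the other settings, and members called lower 0 under every setting. Other pathway genes called numbered 1 by DESeq2 and 0 to 2 with a library left out: Oxct1 and Ppm1k without labelled WT replicate 1, and Acsl6 without labelled WT replicate 2, the first and last chosen after their values were seen. Over the 10 named members and 4 named other genes, 165 of 168 alternative values kept their sign and their side of the threshold, and 3 passed it. These were Suclg2 and Acadl by DESeq2, and Ppm1k without labelled WT replicate 1 (edgeR adjusted p = 0.0278). Adjusted p values over the alternatives ran from 0.0109 to 0.477 for Suclg2, 0.0278 to 0.68 for Ppm1k, 0.0468 to 0.511 for Acadl, 0.0771 to 0.725 for Cpt1a and 0.194 to 0.66 for Sdha. None of the named genes had passed in the main fit, so keeping the side of the threshold meant staying uncalled. The tally did not measure how far a value moved, and the log2 fold change of Dlst ran from 0.04 to 1.08. Same-numbered libraries tended only weakly to deviate in opposite directions (correlation across genes −0.177). The labels give no shared origin for a number, so the samples share only a number. Neither the replicate block nor a crossed pairing added after seeing this called any member, and the crossed pairing called 12 genes in all.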
